A study of Homo sapiens with 4 samples.

Results

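The genes described here encode 6 keratins (KRT7, KRT8, KRT17, KRT18, KRT19 and KRT80), vimentin (VIM) and nestin (NES). They were taken by symbol from a table of 2897 genes, and all 8 were found. RNA-seq was performed on 2 human gastric cancer (GC) cell lines, AGS-1 (named AGS in some of the labels) and HGC-27, both labelled wild type. For each line 1 untreated library was analysed here, and 1 library of cells treated with isorhamnetin (ISO), a methylated flavonoid, for 24 h. The sample labels give an ISO dose of 50 μM, and the text of the study gives a lower dose for the RNA-seq. Values are FPKM, fragments scaled to the length of the gene and to the total of the library. Levels set side by side between genes therefore depend on the length used for each gene. This was 6881 bases for KRT8, the sum of all its annotated exons, and 3069 bases for KRT18. With 1 library per condition and line, no spread between cultures could be measured within a line, and errors given for single libraries cover counting error only.

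Intermediate filaments are the cytoskeletal cables that give cells mechanical strength. Keratin filaments form only when a type I keratin pairs with a type II keratin. KRT8 (type II) and KRT18 (type I) are the founding pair of simple epithelia such as the stomach lining, where KRT19 (type I) and, in ducts and glands, KRT7 (type II) join them. KRT17 (type I) is known as a stress keratin that is induced in injured epithelium and in carcinomas, and KRT80 is a type II keratin of epithelia. Vimentin is the type III filament protein of mesenchymal cells. Nestin is a large filament protein of progenitor cells that does not form filaments alone and copolymerizes with vimentin.

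The type II members lie in the keratin cluster on chromosome 12, KRT80 (ENSG00000167767) at 52168996 to 52192014, KRT7 (ENSG00000135480) at 52232520 to 52252186 and KRT8 (ENSG00000170421) at 52897187 to 52949954. KRT18 (ENSG00000111057, 52948871 to 52952906) is a type I gene that lies beside KRT8 in the type II cluster. KRT19 (ENSG00000171345, 41523617 to 41528308) and KRT17 (ENSG00000128422, 41619442 to 41624842) lie on chromosome 17. VIM (ENSG00000026025) is on chromosome 10 at 17228241 to 17237593, and NES (ENSG00000132688) on chromosome 1 at 156668763 to 156677407. These are the coordinates of the deposited table on GRCh38.

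Sequence of the 250 bases upstream of an annotated start was found in RefSeq (GRCh38.p14) for KRT8, VIM and NES. They are shown because no other member had an entry. Capitals mark the motifs found. The KRT8 window lies inside the span that the table gives for the gene, and the VIM and NES windows end beside the first base of theirs. Motifs were searched on both strands. They were the TATA motif TATAAA, the AP-1 site written as TGAGTCA, the GC box in the form GGGCGG, the E-box known as CAGGTG and the box named CCAAT.
KRT8, chr12:52926470-52926719, minus strand: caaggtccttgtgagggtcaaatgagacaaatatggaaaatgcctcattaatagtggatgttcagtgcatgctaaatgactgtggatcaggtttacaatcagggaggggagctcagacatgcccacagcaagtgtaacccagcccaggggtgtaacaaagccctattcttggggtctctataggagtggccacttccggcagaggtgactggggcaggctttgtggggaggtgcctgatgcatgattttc
VIM, chr10:17227991-17228240, plus strand: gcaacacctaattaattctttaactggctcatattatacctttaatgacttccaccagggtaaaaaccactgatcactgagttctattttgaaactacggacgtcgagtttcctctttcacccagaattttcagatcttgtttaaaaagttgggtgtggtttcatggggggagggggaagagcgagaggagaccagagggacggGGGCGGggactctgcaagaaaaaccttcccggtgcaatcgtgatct
NES, chr1:156677408-156677657, minus strand: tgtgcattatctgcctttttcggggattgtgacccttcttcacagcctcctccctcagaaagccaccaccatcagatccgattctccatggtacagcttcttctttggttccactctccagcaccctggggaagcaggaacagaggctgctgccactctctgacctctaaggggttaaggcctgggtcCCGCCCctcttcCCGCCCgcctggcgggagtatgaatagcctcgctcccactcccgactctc
The VIM window held 1 GC box, at position -46 counted back from the start, and the NES window held 2, at positions -62 and -50 on the opposite strand. None of the 5 motifs was in the KRT8 window. This window belongs to a start inside the gene span, and windows at other KRT8 starts were not searched. Which start these cells use is not known from these data. A GC box was found in 42.6% of the 35116 upstream windows of the same length, the TATA motif in 10.7%, the AP-1 motif in 4.20%, the E-box in 17.5% and the CCAAT box in 32.0%. The bases G and C made up 50.4% of the KRT8 window, 46% of the VIM window and 58% of the NES window.

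Some members share sequence with other genes, which limits how surely fragments were assigned. The exons of KRT8 and KRT18 overlap by 525 bases on opposite strands in GENCODE 29, and whether strand was used in counting is not given in the sources used here. Of all stretches of 50 bases in the transcripts of KRT18, 24.5% also occur in transcripts of other genes on either strand, 12.7% in KRT8. For KRT8 the share was 16.1%, for VIM 20.7% (11.4% in the antisense gene VIM-AS1) and for KRT17 9.02% (5.56% in its pseudogene KRT17P1). It was 5.70% for KRT7, 0.977% for KRT19, 0.364% for KRT80 and 0% for NES. The table holds no other keratin, no keratin pseudogene and no antisense gene of a member.

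The libraries held between 15235004 and 20199425 fragments. The listed genes took 78.5% of them in the AGS-1 control and 64.4% in AGS-1 with ISO. In HGC-27 they took 61.0% in the control and 60.0% with ISO. The marker lists were chosen with earlier results of these data known, so their counts are descriptive. Of the epithelial markers fixed for this work, 12 of 26 are in the table. Their summed level was 2032 FPKM in untreated and 1510.1 in treated AGS-1 cells, 19.8 in untreated and 15.5 in treated HGC-27 cells, and 9 of the 12 were under 1 FPKM in the HGC-27 control. All 12 were higher in AGS-1 by limma, beside 32.2% of all genes tested. With ISO 0 of them changed at least 2-fold in either line, beside 6.63% (AGS-1) and 0.932% (HGC-27) of all genes that fell. Of the mesenchymal markers 10 of 23 are in the table, with summed levels of 499.5 and 275 FPKM in AGS-1 and of 2028 and 1511 FPKM in HGC-27. Of these, 9 were higher in HGC-27 by limma, beside 24.7% of all genes. A different marker fell at least 2-fold with ISO in each line, S100A4 in AGS-1 and TWIST1 in HGC-27. This is 1 of 10 in each line, beside 6.63% (AGS-1) and 0.932% (HGC-27) of all genes that fell. In AGS-1 TWIST1, a transcription factor of mesenchymal cells, and COL6A2 were at 0 FPKM in both libraries. None of the leukocyte (6) or endothelial (4) markers is in the table.

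The first question was which filaments each GC line expresses. The AGS-1 libraries were dominated by simple keratins and the HGC-27 libraries by vimentin, and nestin was present in both lines. In bulk RNA, fewer cells that express a gene and less RNA per cell cannot be told apart.

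KRT8 stood at 508 FPKM in untreated and 341 in treated AGS-1 cells, against 2.19 and 0.996 FPKM in untreated and treated HGC-27 cells. The control libraries thus differed 232-fold, with a 95% counting interval of 207 to 261. Its partner KRT18 had 559 and 296 FPKM in AGS-1, against 0.919 and 0.363 FPKM in HGC-27, where these values rest on 57 and 19 fragments. KRT19, which has the shortest gene model of the 8, had the highest keratin FPKM of untreated AGS-1 cells, 598, and 332 FPKM with ISO. It had 0 fragments in both HGC-27 libraries, where 3 fragments, taken as the limit that a count of 0 allows, would be 0.0636 and 0.0752 FPKM. KRT19 was thus at least 9407-fold higher in the AGS-1 control than in the HGC-27 control, and at least 4408-fold higher in the ISO libraries. Among the 2897 genes KRT19 ranked 39, KRT18 47 and KRT8 54 by FPKM in the AGS-1 control. In fragments not divided by length their order was reversed, with 53206 for KRT8, 26114 for KRT18 and 21286 for KRT19. The simple keratins were high in both AGS-1 libraries and low in both HGC-27 libraries, with no overlap.

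The stress keratin KRT17 measured 42.4 FPKM in untreated and 11.9 in treated AGS-1 cells, and 2.76 and 1.60 FPKM in untreated and treated HGC-27 cells. KRT80 followed the same order with 70.3, 23.7, 2.95 and 1.60 FPKM. For both genes the AGS-1 libraries lay above the HGC-27 libraries, by 15.4-fold for KRT17 and 23.8-fold for KRT80 in the controls. The factor between the lines was smaller with ISO, 7.40-fold for KRT17 (95% counting interval 5.86 to 9.44) and 14.9-fold for KRT80 (12.3 to 18.1). KRT7, in contrast, was near the lower end of the table everywhere. Untreated AGS-1 cells had 4.02 FPKM and treated ones 0.533, while untreated HGC-27 cells had 1.26 FPKM and treated ones 0.791. Its libraries overlapped between the lines, since the AGS-1 ISO library lay below both HGC-27 libraries.

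VIM had 306 FPKM in untreated and 249 in treated HGC-27 cells, and 0.697 and 0.860 FPKM in AGS-1, from 55 and 71 fragments. It ranked 80 of 2897 genes in the HGC-27 control and 2815 in the AGS-1 control. The control libraries differed 438-fold in the direction opposite to the keratins (95% counting interval 337 to 582). NES was at 46.7 and 32.9 FPKM in AGS-1, and 24.7 and 31.7 FPKM in HGC-27. The NES libraries did not overlap between the lines, but the ISO libraries differed by a factor of only 1.04, with a counting interval of 0.986 to 1.09 that includes 1.

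**Figure D1:**
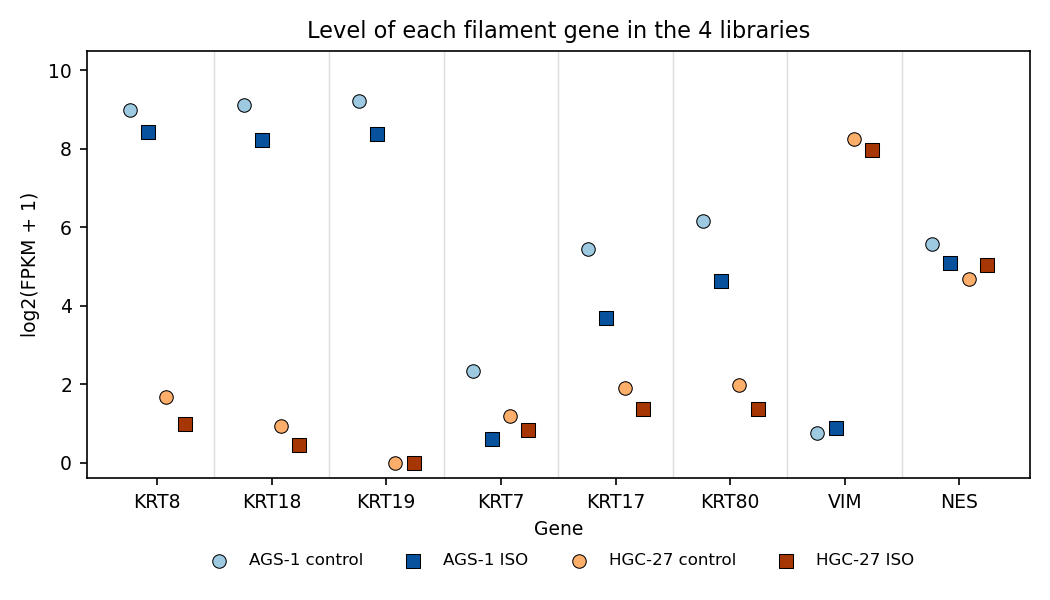
Level of the 8 genes as log2(FPKM + 1) on the vertical axis, with 1 point per library (circles control, squares ISO; blue AGS-1, orange HGC-27). KRT8, KRT18 and KRT19 lie above 8 in AGS-1 and below 2 in HGC-27, VIM lies high in HGC-27 and low in AGS-1, and NES lies between these extremes in all 4 libraries.

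To test the difference between the lines, limma was fitted to log2(FPKM + 1) with treatment as a term, over the 2883 genes whose mean reached 1 FPKM. KRT18, KRT19 and VIM reached this mean only through the line where they are high. The members were chosen with earlier results of these data known, so their counts are a description and not independent support. The 2 libraries of a line share that line and differ in treatment, so no spread between cultures was measured. The residual is the difference of the ISO change between the lines, and its variance is moderated over all genes. The p-values rest on this residual and say nothing of other GC lines. Of the 8 members, 6 passed an adjusted p of 0.05 (limma with Benjamini-Hochberg adjustment), beside 56.9% of all genes tested. KRT18, KRT19 and VIM are among these 6. The members counted lower in HGC-27 were 5, beside 32.2% of genes, and 1 was higher, beside 24.7%, while 60.6% of genes had an unadjusted p under 0.05. The log2 difference of HGC-27 minus AGS-1 was -7.98 for KRT18 (SE 0.195, adjusted p 6.93e-12 by limma), -7.37 for KRT8 (SE 0.191, adjusted p 7.23e-12) and 7.28 for VIM (SE 0.194, adjusted p 9.36e-12). For KRT19 it was -8.80, which against 0 fragments depends on the pseudocount and is not a bound. The sizes for KRT18, KRT8 and VIM also depend on the pseudocount, since their low line was near or under 1 FPKM. With 0.1 FPKM they were -9.21, -8.04 and 8.30, and with 5 FPKM -6.19, -6.00 and 5.60. Among all genes tested 0.104% had a lower difference than KRT19, and 99.8% a lower one than VIM. KRT80 had a log2 difference of -3.71 (SE 0.260, adjusted p 5.54e-08 by limma) and KRT17 of -2.92 (SE 0.324, adjusted p 6.10e-06 by limma).
NES and KRT7 did not pass, with log2 differences of -0.47 (SE 0.226, adjusted p 0.0947 by limma) and -0.46 (SE 0.978, adjusted p 0.706 by limma). The KRT7 value turned on a single library. Without the AGS-1 ISO library, and without treatment in the model, its difference was -1.32 with an adjusted p of 0.00245 by limma, and without the AGS-1 control library it was 0.39 (adjusted p 0.0906). Counting non-overlap, 7 of the 8 members were separated between the lines, with 6 higher in AGS-1 and 1 higher in HGC-27, beside 74% of all 2897 genes.

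The make-up of the filament mRNA does not depend on how libraries are scaled, because each value is a ratio within 1 library. Summed over the 8 genes, keratins made up 97.4% of the FPKM in untreated AGS-1 cells and 96.7% in treated ones, and 2.96% and 1.87% in untreated and treated HGC-27 cells. Vimentin made up 0.0381% and 0.0828% in AGS-1, and 89.8% and 87.0% in HGC-27. The nestin share was 2.56% without and 3.17% with ISO in AGS-1, and 7.26% without and 11.1% with ISO in HGC-27. The share was thus higher in the ISO library of each line, but the NES level was not. It was lower with ISO in AGS-1 (46.7 and 32.9 FPKM), where the keratin sum was lower as well, and higher in HGC-27 (24.7 and 31.7 FPKM).
Among keratins, KRT8, KRT18 and KRT19 together held 93.4% of the keratin FPKM in untreated AGS-1 cells and 96.4% in treated ones, but 30.8% and 25.4% in HGC-27. KRT17 and KRT80 held 6.33% and 3.54% in the AGS-1 libraries, and 56.6% and 59.8% of the small keratin pool of HGC-27. That pool summed to 10.1 FPKM in the control and 5.35 FPKM with ISO, against 1781 and 1005 FPKM in AGS-1.
Since the protein filament pairs both types, the ratio of type II (KRT7, KRT8 and KRT80) to type I mRNA (KRT17, KRT18 and KRT19) was computed. It was 0.485 ± 0.00300 (counting SE) in untreated and 0.571 ± 0.00454 in treated AGS-1 cells. In HGC-27 it was 1.74 ± 0.135 and 1.72 ± 0.200, and the control and ISO values there differed by less than their counting errors. Within the founding pair, KRT8 over KRT18 was 0.909 ± 0.00687 in untreated and 1.15 ± 0.0113 in treated AGS-1 cells. It was 2.38 ± 0.343 and 2.75 ± 0.679 in HGC-27. Type I mRNA was therefore the more abundant type in AGS-1 per gene length and type II in HGC-27. Per fragment, without division by length, type II was the more abundant in all 4 libraries. KRT8 over KRT18 was then 2.04 in untreated and 2.58 in treated AGS-1 cells. Which type was the more abundant in AGS-1 thus depended on the gene lengths used.

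**Figure D2:**
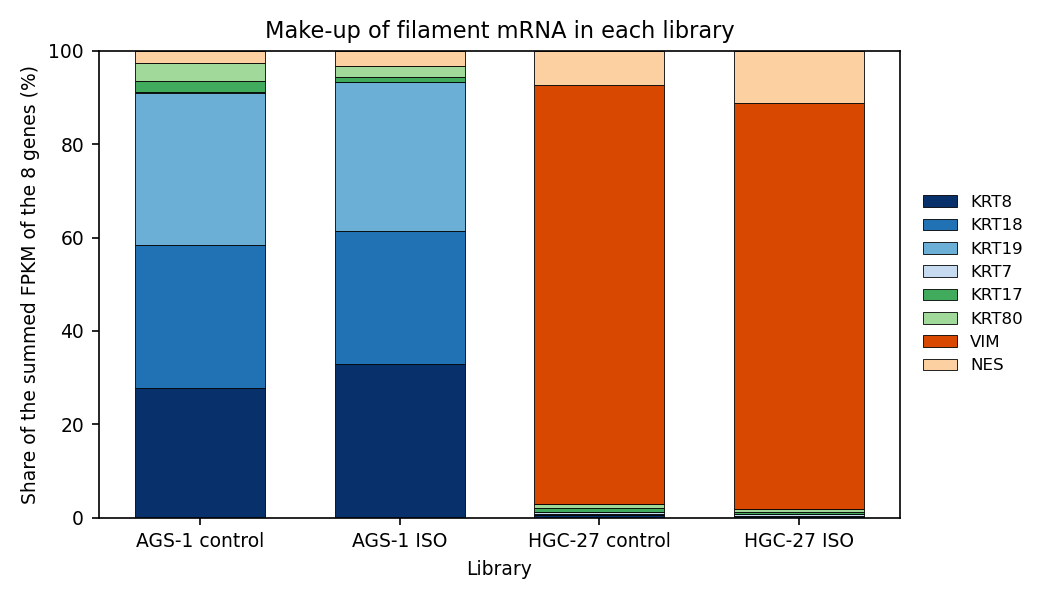
Share of each gene in the summed FPKM of the 8 genes (vertical axis, percent), with 1 bar per library. Blue and green parts are keratins, which fill 97.4% and 96.7% of the AGS-1 bars, and the dark orange part is VIM, which fills 89.8% and 87.0% of the HGC-27 bars.

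The second question was how the filament genes differed between ISO-treated and untreated cells of each line. Changes are log2 ratios of FPKM + 1, ISO over control, and a gene was counted as changed at 2-fold or more. In AGS-1 all 6 keratins were lower with ISO, and KRT7, KRT17 and KRT80 fell at least 2-fold. In HGC-27 no member passed 2-fold. The values compare 2 libraries each and have no replicate check.

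In AGS-1, 3 of the 8 members fell at least 2-fold and 0 rose, beside 6.63% of all 2897 genes that fell and 0.828% that rose. KRT17 retained 27.9% of its control FPKM (1937 and 567 fragments in the control and ISO libraries), a log2 ratio of -1.76 with a counting SE of 0.0644. KRT80 retained 33.8% (log2 ratio -1.53, counting SE 0.0399). KRT7 retained 13.2%, from 245 to 34 fragments, and its log2 ratio of -1.71 (counting SE 0.113) is understated by the pseudocount at so low a level. With a pseudocount of 5 FPKM it was -0.71, short of 2-fold. From the lowest ratio upward, these genes ranked 16 (KRT17), 18 (KRT7) and 33 (KRT80) among the 2897.
The simple keratins were lower by less than 2-fold. KRT18 retained 53.0% of its control FPKM, KRT19 55.4% and KRT8 67.2%, with log2 ratios of -0.91, -0.85 and -0.57 and counting SEs of 0.0149, 0.0163 and 0.00971. On the same ranking KRT18 was at 263, KRT19 at 319 and KRT8 at 718. NES had a log2 ratio of -0.49 (counting SE 0.0343). VIM, with few fragments in AGS-1, had 0.13 (counting SE 0.112), and the 95% counting interval of its FPKM ratio, 0.855 to 1.79, includes 1.

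Many genes were lower with ISO in AGS-1, since 78.6% of all log2 ratios were below 0 and their median was -0.29. Median-of-ratios scaling moved this median to -0.02 and upper-quartile scaling to 0.0999. Relative to the median of all genes the changes were -1.47 for KRT17, -1.43 for KRT7, -1.24 for KRT80, -0.63 for KRT18, -0.56 for KRT19, -0.29 for KRT8, -0.21 for NES and 0.42 for VIM. No member changed sign in either line under the other scalings, and KRT8 and NES came closest to it in AGS-1, with -0.14 and -0.07 under upper-quartile scaling. The median over the 6 keratins was -1.22 in AGS-1, beside -0.29 over all genes.

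Ratios between members within a library are free of scaling. Set against KRT8, the AGS-1 ISO library held 0.788 times as much KRT18 as the control (95% counting interval 0.769 to 0.808) and 0.825 times as much KRT19 (0.804 to 0.847). The factor was 0.503 for KRT80 (0.474 to 0.532), 0.416 for KRT17 (0.378 to 0.457) and 0.197 for KRT7 (0.138 to 0.282). For NES it was 1.05 with an interval of 0.999 to 1.10, so no shift between NES and KRT8 was detectable at this depth. The keratins thus differed among themselves by more than counting error, and those of low or middle level had lower ratios than the 3 abundant ones.

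In HGC-27, 0 of the 8 members changed at least 2-fold, beside 0.932% of all genes that fell and 0.552% that rose. The 5 keratins with fragments had lower values with ISO, at log2 ratios of -0.68 for KRT8, -0.60 for KRT80, -0.53 for KRT17, -0.49 for KRT18 and -0.34 for KRT7, beside a median of -0.11 over all genes and 64.2% of all ratios below 0. These rest on low counts, 304 and 117 fragments for KRT8 and 57 and 19 for KRT18, and the pseudocount shrinks them. Without it KRT8 retained 45.5% of its control FPKM (FPKM ratio 0.455, 95% counting interval 0.365 to 0.565) and KRT18 39.4% (ratio 0.394, interval 0.222 to 0.673). With a pseudocount of 0.1 FPKM both passed 2-fold in HGC-27, at log2 ratios of -1.06 for KRT8 and -1.14 for KRT18. The abundant filament gene of this line, VIM, went from 31971 to 21962 fragments and retained 81.3% of its FPKM, a log2 ratio of -0.30 with a counting SE of 0.0126. NES was higher with ISO, with 2782 and 3018 fragments, an FPKM ratio of 1.28 (95% counting interval 1.22 to 1.35) and a log2 ratio of 0.35. Of all genes 91.8% had a lower ratio than NES in HGC-27.

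**Figure D3:**
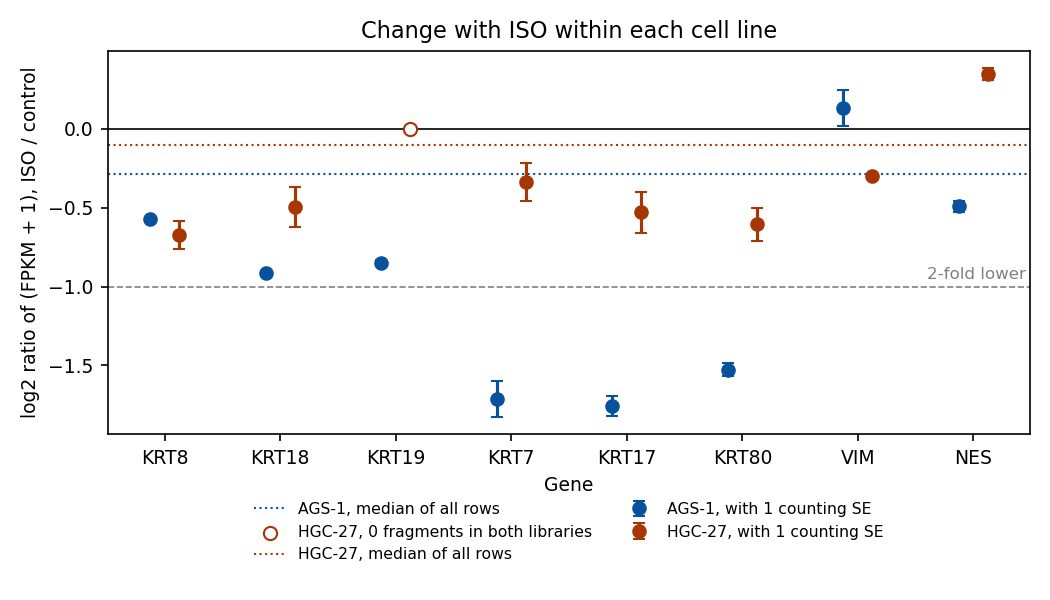
Log2 ratio of FPKM + 1, ISO over control, for each gene in AGS-1 (blue) and HGC-27 (orange), with bars of 1 counting SE, dotted lines at the median of all 2897 genes of each line and a dashed line at a 2-fold fall. KRT7, KRT17 and KRT80 lie below the dashed line in AGS-1 at -1.71, -1.76 and -1.53, no gene does so in HGC-27, and NES lies at -0.49 in AGS-1 and at 0.35 in HGC-27.

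The part of the change that both lines share was tested in the same limma fit, with the cell line in the model and 1 residual degree of freedom. Of the 8 members 0 passed an adjusted p of 0.05, beside 0.937% of the 2883 genes (0.832% lower and 0.104% higher). At an unadjusted p under 0.05 there were 4 members, KRT8, KRT17, KRT18 and KRT80, beside 20% of all genes. The adjusted p was lowest for KRT80, with a shared log2 change of -1.07 (SE 0.260, adjusted p 0.0733 by limma). KRT18 had -0.70 (SE 0.195, adjusted p 0.108 by limma), KRT17 -1.14 (SE 0.324, adjusted p 0.116 by limma) and KRT8 -0.62 (SE 0.191, adjusted p 0.123 by limma), each lower with ISO in both lines. VIM and NES had shared changes of -0.08 and -0.07, with SEs of 0.194 and 0.226. Both had ratios of opposite sign in the 2 lines, for VIM within counting error in AGS-1. The number of members that passed depended on the settings. It was 4 (KRT8, KRT17, KRT18 and KRT80) with a pseudocount of 0.1 FPKM, 3 (KRT7, KRT17 and KRT80) with limma's voom on the recovered fragments, 2 (KRT18 and KRT80) where the mean had to reach 10 FPKM, and 0 with median-of-ratios or upper-quartile scaling. All genes that passed numbered 107, 208, 104 and 0 in these settings, in the same order. A difference of the ISO change between the lines could not be tested, because 4 libraries leave no residual degree of freedom for it.

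Genes that work with filaments were taken from 3 fixed lists, chosen with earlier results of these data known. Of 21 genes of filament linkers and desmosomes, the junctions that anchor keratins, 8 are in the table. All 8 were higher in AGS-1 by limma, beside 32.2% of all genes tested, among them JUP (plakoglobin, 174 and 127 FPKM, against 1.39 and 0.510 FPKM in HGC-27) and DSP (desmoplakin, 66.1 and 53.9 FPKM, against 2.30 and 1.78). With ISO in AGS-1, 2 of the 8 fell at least 2-fold and 0 rose, beside 6.63% and 0.828% of all genes. PLEC (plectin, which links filaments to junctions and to actin) fell from 211 to 97.8 FPKM and PPL (periplakin) from 59.8 to 24.8 FPKM. In HGC-27 PLEC had 27.4 and 26.2 FPKM. For the list the median log2 ratio stood at -0.45 in the first line and -0.15 in the second, beside medians of -0.29 and -0.11 over all genes.
Of 7 genes of hemidesmosomes, which anchor keratins to the basement membrane, 5 are in the table and all 5 were higher in AGS-1 by limma, again beside 32.2%. In AGS-1, 2 of them fell at least 2-fold with ISO, beside 6.63% of all genes. These were LAMB3, a laminin chain, and ITGB4, the integrin that binds plectin. ITGB4 had 237 and 108 FPKM in AGS-1, against 0.505 and 0.269 FPKM in HGC-27. ITGA6, its integrin partner, had 181 and 92.2 FPKM in AGS-1, a log2 ratio of -0.97. Over the list the median was -0.97 in AGS-1, against -0.14 in HGC-27, beside -0.29 and -0.11 over all genes.
Of 17 chaperones and binding partners of filaments, 9 are in the table, and 0 changed at least 2-fold in either line. Of all genes, 6.63% fell and 0.828% rose in AGS-1, and 0.932% fell and 0.552% rose in HGC-27. The list medians were -0.71 (AGS-1) and -0.12 (HGC-27), beside -0.29 and -0.11 over all genes. Between the lines 3 were higher in AGS-1 and 2 in HGC-27 by limma, beside 32.2% and 24.7% of all genes tested. SFN (stratifin), which binds KRT17 and KRT18, had 228 and 136 FPKM in AGS-1 and 4.31 and 3.31 FPKM in HGC-27, and HSPB1, a small heat shock protein, had 102 and 56.1 FPKM against 398 and 310 FPKM. In the limma test of the shared ISO change, 0 genes of these 3 lists passed, beside 0.937% of all genes. At an unadjusted p under 0.05 there were 2 linkers, 3 hemidesmosome genes and 3 partners, beside 20% of all genes tested. With voom 1, 1 and 0 genes passed the adjusted threshold, beside 208 of all 2883 genes.
KRT7, KRT17 and KRT80 passed 2-fold in AGS-1 under each scaling, while the listed genes, whose ratios were nearer to 2-fold, did not. With median-of-ratios scaling the AGS-1 log2 ratios were -0.82 for PLEC, -0.97 for PPL, -0.98 for LAMB3 and -0.84 for ITGB4, so that none of these 4 passed 2-fold. The AGS-1 medians were then -0.17 for linkers and desmosomes, -0.69 for hemidesmosomes and -0.43 for chaperones and partners. With upper-quartile scaling the HGC-27 median of the chaperones and partners was 0.0237, the 1 median of these 3 lists that turned positive.

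**Figure D4:**
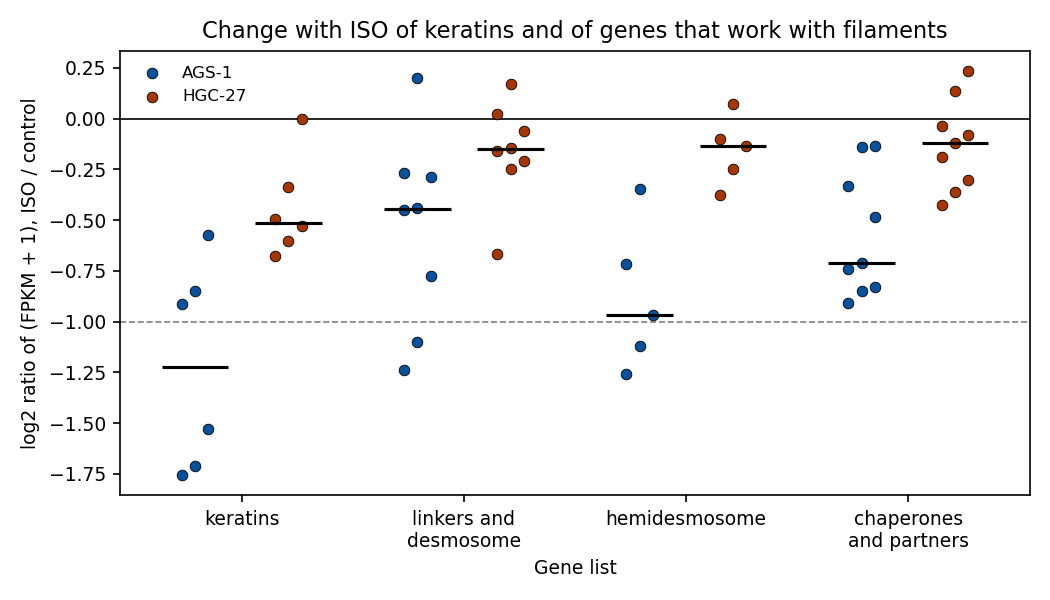
Log2 ratio of FPKM + 1, ISO over control, for the 6 keratins and the genes of 3 fixed lists (1 point per gene; blue AGS-1, orange HGC-27; black bars are medians; the dashed line marks a 2-fold fall). The AGS-1 medians are -1.22 for keratins, -0.45 for linkers and desmosomes, -0.97 for hemidesmosomes and -0.71 for chaperones and partners, and each lies below the HGC-27 median of the same list.

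The other filament genes of the table are the nuclear lamins. LMNA had 163 and 103 FPKM in AGS-1, against 103 and 86.9 FPKM in HGC-27. No lamin changed at least 2-fold with ISO.

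The genes whose pattern was most like each member were found by the distance between log2(FPKM + 1) values centred over the 4 libraries, which is a description without a test. KRT8 and KRT18 were the closest to one another among pairs of members, with a distance of 0.667. Outside the members, SPINT1 (a protease inhibitor of epithelia, 0.570), EPCAM (an epithelial adhesion protein, 0.605) and FOXQ1 (a forkhead transcription factor, 0.655) were closest to KRT8. FOXQ1 (0.382), CTSE (0.471) and TNS4 (0.524) were closest to KRT18. For KRT19 they were LYZ (lysozyme, 0.0673), PLA2G2A (0.154) and S100A6 (0.371), of which LYZ and PLA2G2A also had 0 fragments in HGC-27. The nearest genes to KRT17 were VASP (an actin regulator, 0.178), NR1D1 (0.408) and CARD10 (0.446), and KRT80 was closest to BCAM (0.124), BCL2L1 (0.225) and S100A16 (0.286).
COTL1, an actin-binding protein, lay at 0.173 from KRT7, ahead of FOLR1 (0.290). VIM was most like CTAG2 (0.118) and the matrix genes BGN (biglycan, 0.422) and MFAP4 (0.504). NES was most like MKNK2 (0.0625), SKI (0.0869) and PMPCA (0.102), which were each lower with ISO in AGS-1 and higher in HGC-27.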

How the data were processed

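The data analysed here are 4 RNA-seq libraries, AGS-1 and HGC-27 with and without ISO. The study mentions duplicates, and whether a library pools them is not given in the sources used here. The authors deposited 1 table of FPKM values. The submitters' processing notes name HISAT2, CASAVA 1.8 and GRCh38. The counting tool, the annotation release and how the genes of the table were selected are not given in the sources used here. Multiplying FPKM by the length in the table gave, for 100% of values, whole numbers of 1 unit that was constant in each library (tolerance 0.05), and so whole fragments and library totals. These served for depth, counting errors and 1 alternative test. Counting intervals are 95% exact binomial (Clopper-Pearson) intervals or normal ones for ratios of ratios, and cover counting error only.

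Log2 ratios used a pseudocount of 1 FPKM, which understates changes of low genes. Linear models (limma 3.58.1 in R 4.3.3, empirical Bayes with a mean trend) took log2(FPKM + 1) as the response, with line and treatment as terms, for genes whose mean reached 1 FPKM. All 8 members passed this filter, but KRT18, KRT19 and VIM did so only through the line where they are high. Calls used a Benjamini-Hochberg adjusted p under 0.05. On simulated data limma recovered 96% of genes changed 2-fold with ISO, with 0.513% false calls, and 100% between lines, with 7.41% false calls. These shares hold for the simulated data only, and the settings of the simulation are not given here. In the real data KRT7, KRT17 and KRT80 had shared ISO log2 changes of -1.02, -1.14 and -1.07, and none of them passed. The simulated shares therefore do not tell how often a real change of that size would pass. Named genes were all members, the 3 nearest genes by pattern, table rows within 500 kb, other filament genes, and list members past 2-fold or the adjusted threshold. MSN was named after its values were seen. A gene that the rule named is not reported here. The members and lists were chosen with earlier results of these data known. Other steps used Python 3.11.15 (pandas 2.3.3, scipy 1.17.1) and plots matplotlib 3.10.9. RefSeq windows were matched by symbol for 3 of the 8 members. KRT7, KRT17, KRT18, KRT19 and KRT80 had no entry.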

Additional observations from a re-analysis of the deposited data

Results flagged for a closer look

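Log2 ratios of ISO over control were compared in direction between the cell lines for the 8 members and for the listed genes past 2-fold. Opposite signs were seen in 3 of these genes, and the share among all genes is not given here. With 1 library per condition the difference was not tested. The NES ratio was -0.49 in AGS-1, against 0.35 in HGC-27 (-0.22 and 0.41 with median-of-ratios scaling). VIM had 0.13 in AGS-1, from 55 and 71 fragments, and -0.30 in HGC-27. Its sign in AGS-1 is not resolved, since the 95% counting interval of the FPKM ratio, 0.855 to 1.79, includes 1. PPL had -1.24 in AGS-1, against 0.0254 in HGC-27, where its level was 0.199 and 0.221 FPKM. These values rest on 31 and 29 fragments, too few to give a sign.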

How the results depend on the processing

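Each member kept the sign of its ISO ratio within each line under the other pseudocounts and scalings. In AGS-1 the members past 2-fold were 3 throughout, except 2 with a pseudocount of 5 FPKM (KRT7 at -0.71). All genes past 2-fold in AGS-1 numbered 216 (192 lower, 24 higher), 122 with median-of-ratios (72 lower, 50 higher) and 102 with upper-quartile scaling (42 lower, 60 higher). In HGC-27 a pseudocount of 0.1 FPKM put 2 members and 73 genes past 2-fold, against 0 and 43, and one of 5 FPKM 27 genes. The shared ISO change passed in 27 genes. That count was 107 with a pseudocount of 0.1 FPKM (4 members), 12 with 5 FPKM, 0 with either other scaling, 6 with no filter, 104 at a mean of at least 10 FPKM (2 members, KRT7 left out), 208 with voom (3 members) and 0 with no cell line block. The small shared changes of VIM and NES turned positive with median-of-ratios (0.00756 and 0.0954) and upper-quartile scaling (0.0775 and 0.210). The cause was not tested. The line difference held for the same number of members, 6, in all alternatives except without the AGS-1 ISO library (7). Without the treatment term 1182 genes passed in place of 1639. Leaving out 1 library as well gave 607 to 1252 genes, and -1.32 to 0.39 for KRT7. A line left with 1 library is then assumed to vary like the other. Of the 1639 genes 928 were lower in HGC-27 and 711 higher, and 789 and 1064 with upper-quartile scaling. In fragments not divided by length, the keratin share was 96.4% and 95.7% in AGS-1 and 2.50% and 1.54% in HGC-27, and the type II to type I ratio 1.18, 1.43, 2.97 and 2.87 (control and ISO of AGS-1, then of HGC-27). The shared ISO test pairs libraries by cell line, and the labels give no replicate numbers to pair by. Low counts limit keratins in HGC-27 and VIM in AGS-1.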

Other observations

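Around the members, 22 other genes of the table lay within 500 kb. With ISO, 14 of them were lower in AGS-1 and 15 in HGC-27, beside 78.6% and 64.2% of all genes, with median log2 ratios of -0.09 and -0.15, beside -0.29 and -0.11. Of the 22, 2 fell at least 2-fold in AGS-1 (neither with median-of-ratios scaling, -0.997 for RARG and -0.75 for IGFBP6), both on chromosome 12 near KRT8 and KRT18, beside 6.63% of all genes. RARG, a retinoic acid receptor, fell in AGS-1 (14.4 and 5.46 FPKM without and with ISO), had 49.6 and 28.9 FPKM in HGC-27, and passed the limma test of the shared ISO change (1 of 22, beside 0.937% of all genes, adjusted p 0.0334 by limma). This call was lost under either other scaling (median-of-ratios, then upper-quartile), where 0 genes passed and the smallest adjusted p of any gene was 0.0515 and 0.0653. IGFBP6, which binds insulin-like growth factors, fell in AGS-1 (82.8 and 40.1 FPKM) and had 28.1 and 18.3 FPKM in HGC-27. EIF4B, a translation initiation factor 56.3 kb from KRT8, had 60.7 and 57.9 FPKM in AGS-1 and 76.3 and 76.1 FPKM in HGC-27. FKBP10, a collagen chaperone 284 kb from KRT19, had 2.15 and 1.67 FPKM in AGS-1 and 166 and 165 FPKM in HGC-27, the opposite order of the lines to KRT19 itself.

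Among the mesenchymal markers, S100A4, a calcium-binding protein, passed the limma test of the shared ISO change (log2 change -1.40, SE 0.283, adjusted p 0.0388 by limma), a call that was likewise lost with either other scaling. It had 35.5 and 7.29 FPKM in AGS-1 and 71.3 and 44.9 FPKM in HGC-27, while VIM had a shared change of -0.08. TWIST1 fell in HGC-27 (334 and 155 FPKM, a log2 ratio of -1.10, or -0.95 with upper-quartile scaling) and was at 0 FPKM in AGS-1. MSN (moesin, which links actin to the membrane) was the 1 of 10 mesenchymal markers that was higher in AGS-1 than in HGC-27 (adjusted p 0.000688 by limma), with 73.0 and 48.5 FPKM against 29.9 and 25.8 FPKM.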
